A study of Mus musculus with 7 samples.

Results

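Genes whose expression is enriched in the spiny projection neurons of the striatum were examined in ribosome-bound RNA from the medial prefrontal cortex (mPFC) of mice. The module was given as a list of 32 gene symbols. A symbol counted as measured where it matched a probe set annotated with that single symbol, which held for 31 of the 32 (among 22180 genes measured in all). Adora2a, an adenosine receptor gene of indirect-pathway neurons, had no such probe set and is not analysed here. Each of the 31 had 1 such probe set, so no choice between probe sets affected a value.

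The mice carried a ribosome tag of the TRAP kind (translating ribosome affinity purification) and an ArcCre transgene, in which Cre follows the activity-regulated gene Arc, and received tamoxifen around the stimulus. In cells active in that window Cre turned on a GFP tag on ribosomes, which were then precipitated with an antibody to GFP. The cocaine-activated group (4 arrays, numbered 4 to 7) had 15 mg/kg cocaine for 2 days, and the shock-activated group (3 arrays, numbered 4 to 6) had 20 shocks of 0.5 mA lasting 2 s for 2 days. Both groups therefore carried the tag, the Cre and tamoxifen, and unstimulated or input samples were not analysed here. The labels do not say where on the body the shock was given, whether an array is 1 animal or a pool, or the strain, age and sex. Values are log2 expression values, and a difference is cocaine minus shock on that scale, so that 1 is a doubling.

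Spiny projection neurons are the inhibitory output cells of the striatum. One class carries the dopamine D1 receptor and the peptide substance P and projects along the direct pathway, and the other carries the D2 receptor, an adenosine receptor and enkephalin and projects along the indirect pathway. Dopamine and adenosine act in them through the G protein subunit encoded by Gnal and the adenylyl cyclase encoded by Adcy5, which make cyclic AMP, and phosphodiesterases such as the product of Pde10a break it down. Much of the module is not exclusive to striatum: cortical pyramidal or inhibitory neurons also use Foxp1, Meis2, Arpp21, Hpca, Kcnip2 and others. The striatum lies close to the mPFC in the frontal brain, and the module was compared array by array as well as between the groups.

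Marker levels were compared with a stand-in for background. All 10 measured markers of cortical excitatory neurons lay above 5.44, a stand-in for background given by the 95th percentile of mean values among 1373 genes for odorant and vomeronasal receptors, which brain barely uses. Their mean level ran from 8.65 to 8.69 in the cocaine group and from 8.66 to 8.70 in the shock group. A mean above 5.44 was also found for 13823 of the 22180 genes. It was found for all measured markers of astrocytes (9), oligodendrocytes (7), microglia (7) and thalamus (4). Passing that level therefore does not identify a tissue. All 31 members of the striatal module also had a mean above 5.44. Of 4 measured markers of cholinergic neurons, a class of striatal interneuron, none did: Slc18a3 averaged 4.91 ± 0.15 (SD, n = 4) and 5.09 ± 0.12 (SD, n = 3) in the cocaine and shock groups, Slc5a7 4.80 ± 0.24 and 5.02 ± 0.13, Chat 4.59 ± 0.20 and 4.78 ± 0.13, and Lhx8 was the remaining one. Cocaine array 6 stood apart from the others, with correlations over all genes of 0.993 to each of them against 0.996 to 0.997 among the other 6. The median of the module and the differences of several genes are given with and without it.

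Over the whole module the values leaned towards the cocaine group by a small amount. Of the 31 members, 24 averaged higher with cocaine and 7 lower, where 50.9% of all genes were higher. The median difference was 0.063, beside 0.0016 over all 22180 genes and -0.0011 over the 13823 genes above the background stand-in. No member passed the test after adjustment over all genes (limma, Benjamini-Hochberg, smallest adjusted p = 0.938), and neither did any other gene (0%). At an unadjusted p under 0.05 there were 3 higher members, Rarb, Scn4b and Pde10a, where 1.53% of all genes reached that level as higher, and 0 lower members, where 1.57% of all genes did. The 2 groups did not overlap for Rarb and Pde10a, both higher in the cocaine group (1.25% of all genes), and for 0 members lower there (1.11% of all genes).

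**Figure D1:**
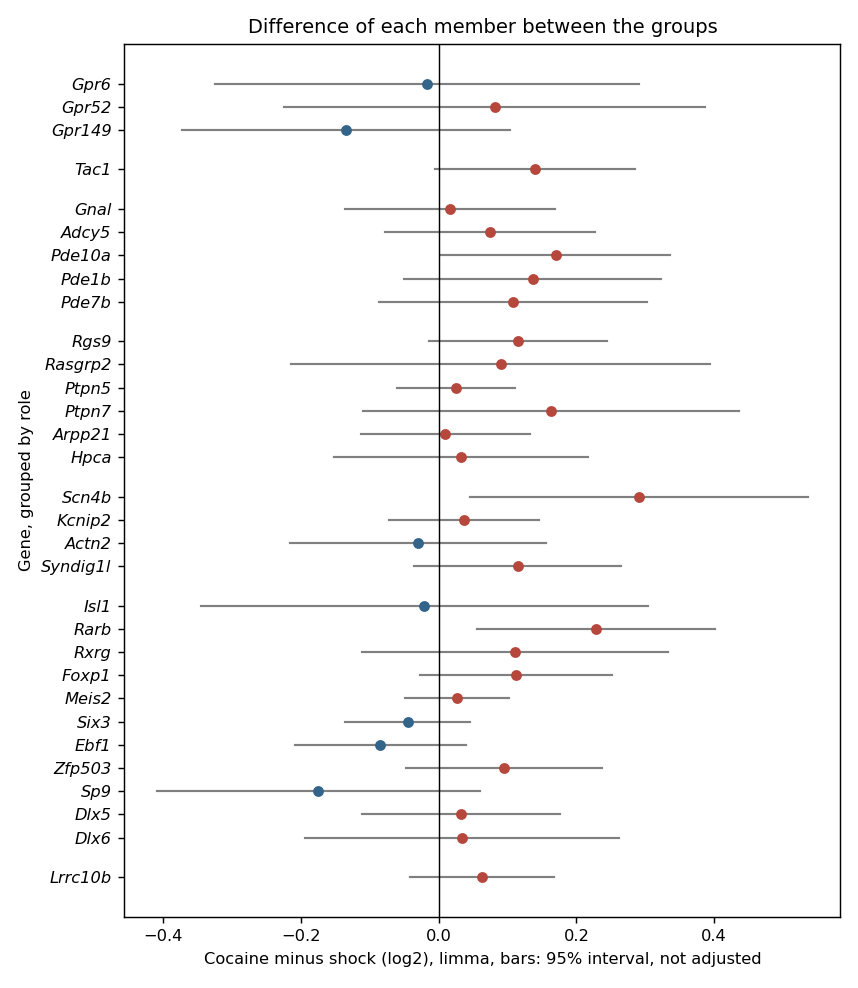
Cocaine minus shock difference of the 31 measured members on the log2 scale (horizontal axis), grouped by role, with unadjusted 95% intervals from limma over 4 cocaine and 3 shock arrays; red points are above 0 and blue points below. The points lie between -0.17 for Sp9 and 0.29 for Scn4b, and 28 of the 31 intervals include 0.

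The intervals limit how large a difference could have gone unseen. The highest upper bound of an unadjusted 95% interval was 0.54 (Scn4b), which is 1.45-fold, and the lowest lower bound was -0.41 (Sp9), or 0.753-fold. For 12 members the difference was under 0.05 in size, and for 13 it was over 0.1, of which 11 were higher and 2 (Sp9 and Gpr149) lower in the cocaine arrays. The within-group SD of the members had a median of 0.098, from 0.024 for Meis2 to 0.20 for Isl1, beside 0.093 over all genes.

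The promoters of the 3 members at an unadjusted p under 0.05 are shown because 1 of them, Rarb, encodes a retinoic acid receptor, a DNA-binding factor that is known to act on its own promoter. The bases are the 250 before the annotated start in the RefSeq table of build GRCm38.p6, 5′ to 3′ on the gene's strand, at chr14:16575477-16575726 (minus strand) for Rarb, chr9:45138374-45138623 (plus strand) for Scn4b and chr17:8801495-8801744 (plus strand) for the first of 2 starts of Pde10a. Capitals mark matches to the motifs searched, with the spacer inside the pair in Rarb and with matches on the opposite strand in Scn4b and Pde10a, where the letters are the reverse complement.
Rarb: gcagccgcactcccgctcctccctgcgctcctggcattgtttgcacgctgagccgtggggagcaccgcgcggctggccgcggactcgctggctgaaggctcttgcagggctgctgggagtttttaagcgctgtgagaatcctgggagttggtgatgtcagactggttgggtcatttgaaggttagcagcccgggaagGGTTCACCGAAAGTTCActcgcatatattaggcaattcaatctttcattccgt
Scn4b: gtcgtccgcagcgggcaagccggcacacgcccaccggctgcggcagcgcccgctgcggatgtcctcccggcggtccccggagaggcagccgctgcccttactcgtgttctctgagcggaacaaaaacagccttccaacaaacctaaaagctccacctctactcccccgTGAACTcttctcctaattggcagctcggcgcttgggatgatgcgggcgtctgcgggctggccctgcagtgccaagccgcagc
Pde10a: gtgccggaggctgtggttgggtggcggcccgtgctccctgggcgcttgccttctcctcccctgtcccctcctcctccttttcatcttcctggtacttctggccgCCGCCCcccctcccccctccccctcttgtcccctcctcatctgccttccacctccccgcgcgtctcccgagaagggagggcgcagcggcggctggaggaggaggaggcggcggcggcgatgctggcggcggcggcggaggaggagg

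The motifs were recognition cores of factors encoded in the module or of its cyclic AMP pathway, searched on both strands: the retinoic acid receptor half-site AGGTCA with its variants (AGTTCA is one, GGTTCA the other), 2 of these in the same direction with 5 bases between them, the Meis core TGACAG, the homeodomain core TAATTA, the Ebf core TCCCNNGGGA, the GC box GGGCGG and the cyclic AMP response element TGACGTCA. The half-sites are parts of the pair, and the 3 can overlap it. Rarb held the pair from 53 bases before the start, GGTTCA followed by AGTTCA, the arrangement known as the retinoic acid response element of this gene. Of 27025 genes with a promoter in the table, 18 (0.0666%) held such a pair, and Rarb was the 1 member among 25 measured members in the table. The variants and spacing searched include that known element, so the match in Rarb was fixed in advance. Scn4b held a single AGTTCA on the opposite strand (13.4% of all genes, 4 of the 25 members), and Pde10a a GC box on the opposite strand (35.4% of all genes, 14 of the 25 members). The second start of Pde10a held 0 matches. The AGGTCA half-site was in 3 of the 25 members (15.8% of all genes), GGTTCA in 3 (10.1%), the Meis core in 6 (18.0%), the homeodomain core in 3 (5.65%), the Ebf core in 0 (0.914%) and the cyclic AMP response element in 1, Gpr6 (1.77%). A gene counted where any of its starts matched. The 25 members had 45 promoters and the 27025 genes had 32851, so members had more starts per gene on which to match. Such matches describe letters in a window and do not show that a factor binds there.

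Values on every array are printed for more members than the naming rule asked, a choice made after they were seen. Among the receptors, Gpr6, a constitutively active receptor of indirect-pathway neurons, had levels of 7.82, 7.47, 8.07 and 7.75 on cocaine arrays 4 to 7 and 7.84, 7.74 and 7.81 on shock arrays 4 to 6. The cocaine arrays held both its highest and its lowest value, and the difference was -0.017 (SE 0.13), or -0.11 without cocaine array 6. Gpr52, a receptor that raises cyclic AMP, had 9.22, 8.80, 9.14 and 9.10 against 9.14, 8.76 and 9.04, a difference of 0.081 (SE 0.13). Cocaine array 5 and shock array 5 were the low arrays for it, and the groups overlapped. Gpr149, an orphan receptor, had 6.17, 5.96, 5.96 and 6.04 against 5.98, 6.15 and 6.37, a difference of -0.13 (SE 0.10) that was -0.032 without shock array 6. For all 3 receptors the groups overlapped.

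Tac1, which encodes the precursor of substance P in direct-pathway neurons and is also used by some cortical interneurons, had 7.80, 7.97, 7.89 and 7.82 on the cocaine arrays and 7.68, 7.67 and 7.83 on the shock arrays. Shock array 6 lay inside the cocaine range, and the other 2 shock arrays lay below it. The difference was 0.14 (SE 0.061, limma unadjusted p = 0.0572), and 0.19 without shock array 6.

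All 5 genes of cyclic nucleotide signalling averaged higher with cocaine. Pde10a, whose enzyme degrades cyclic AMP and cyclic GMP in spiny neurons, had 9.44, 9.44, 9.64 and 9.51 on the cocaine arrays and 9.39, 9.39 and 9.22 on the shock arrays. Every cocaine array lay above every shock array, and the gap between the nearest arrays was small next to the range of either group. The difference was 0.17 (SE 0.070, limma unadjusted p = 0.0461, adjusted p = 0.938). Leaving out its highest array, cocaine array 6, gave 0.12, and leaving out its lowest, shock array 6, gave 0.11.

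Pde1b, a calcium- and calmodulin-stimulated phosphodiesterase gene, followed a similar order, with 10.48, 10.29, 10.58 and 10.49 against 10.37, 10.38 and 10.21. Its difference was 0.14 (SE 0.078), or 0.081 without shock array 6, and cocaine array 5 lay among the shock arrays. Pde7b, a cyclic AMP phosphodiesterase gene, had 10.76, 10.67, 10.98 and 10.74 against 10.77, 10.64 and 10.62. Its difference was 0.11 (SE 0.082), and 0.042 without cocaine array 6. Adcy5 had 10.56, 10.46, 10.70 and 10.65 against 10.53, 10.56 and 10.46, a difference of 0.075 (SE 0.064) that was 0.039 without cocaine array 6. Gnal had 10.48, 10.55, 10.55 and 10.35 against 10.53, 10.38 and 10.50, a difference of 0.017 (SE 0.064) that turned to -0.0053 without cocaine array 6. All 3 phosphodiesterase members and Adcy5 were highest on cocaine array 6, and Gnal was not.

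The rest of that pathway was close to even. Of 24 further genes listed for it (G protein subunits, other cyclases and phosphodiesterases, protein kinase A subunits and its anchors and substrates), 22 were measured, 14 were higher and 8 lower in the cocaine arrays, with a median of 0.019 and a range from -0.071 to 0.11. Gng7, which encodes the gamma subunit that pairs with the product of Gnal in striatum, was the 1 gene at an unadjusted p under 0.05. Over all genes, 1.53% reached that level as higher and 1.57% as lower. Gng7 is also counted among the striatal genes outside the module given below. Its values were 10.60, 10.47, 10.50 and 10.52 against 10.45, 10.40 and 10.40 (difference 0.11, SE 0.041, limma unadjusted p = 0.0341, adjusted p = 0.938). The groups did not overlap for it, as for 1.25% of all genes in that direction.

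**Figure D2:**
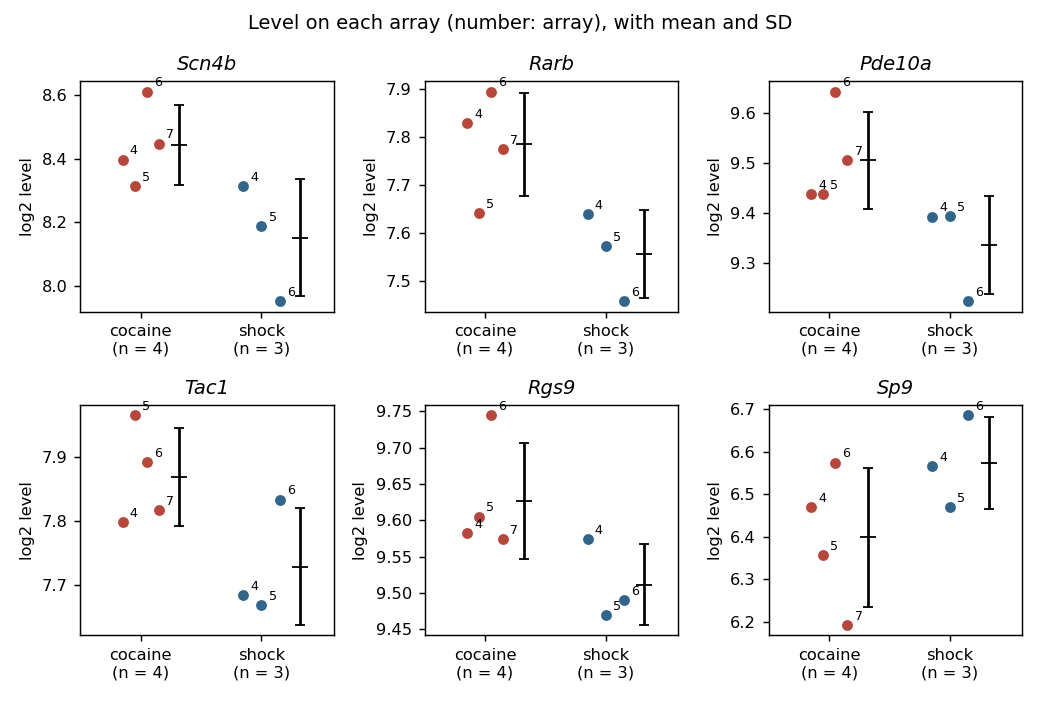
Log2 level of 6 members on each of the 4 cocaine (red) and 3 shock (blue) arrays, with the array number beside each point and the mean and SD in black; the vertical axes differ and do not start at 0. Rarb and Pde10a have every cocaine array above every shock array, Scn4b, Tac1 and Rgs9 meet or overlap, and Sp9 runs the other way.

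The 6 members of other signalling pathways were all a little higher in the cocaine group, from 0.0097 for Arpp21 to 0.16 for Ptpn7. Rgs9, whose product shortens dopamine receptor signalling, had 9.58, 9.61, 9.74 and 9.57 against 9.57, 9.47 and 9.49. Cocaine array 7 and shock array 4 shared a value, and otherwise the cocaine arrays were higher (difference 0.12, SE 0.054, limma unadjusted p = 0.0726, and 0.076 without cocaine array 6). Ptpn7, a phosphatase gene close to background, had 5.72, 5.50, 5.96 and 5.57 against 5.58, 5.58 and 5.41, a difference of 0.16 (SE 0.11) that was 0.072 without cocaine array 6. Rasgrp2, an activator of the GTPase Rap1 in striatal neurons, had 7.04, 6.88, 7.45 and 7.04 against 7.03, 7.04 and 6.96. Cocaine array 6 alone was high for Rasgrp2, and its difference of 0.090 (SE 0.13) turned to -0.025 without that array.

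The other 3 genes of this role, which cortical pyramidal cells also use, differed by under 0.05. Ptpn5, the gene of the striatum-enriched phosphatase STEP, averaged 9.40 ± 0.04 (SD, n = 4) against 9.38 ± 0.02 (SD, n = 3). The groups differed by 0.025, and by 0.0075 without cocaine array 6. Arpp21, a substrate of protein kinase A, averaged 9.58 ± 0.03 against 9.57 ± 0.10, and cocaine array 6 was the lowest cocaine array for it (9.54). Hpca, the neuronal calcium sensor hippocalcin, averaged 7.89 ± 0.08 against 7.85 ± 0.15. The signs of Arpp21 and Hpca turned without shock array 6 (to -0.044 and -0.041).

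In the channel and synapse group, Scn4b had the largest difference of the module. This gene encodes the sodium channel beta-4 subunit, which shapes resurgent sodium current and also occurs in some cortical neurons. It had 8.40, 8.31, 8.61 and 8.45 on the cocaine arrays and 8.31, 8.19 and 7.95 on the shock arrays. Cocaine array 5 and shock array 4 shared the value 8.31, so the groups met without crossing. The difference was 0.29 (SE 0.10, 1.22-fold, limma unadjusted p = 0.0268, adjusted p = 0.938). It was 0.19 without shock array 6, its lowest array, and 0.23 without cocaine array 6, its highest.

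The other 3 genes of this group differed by less. Syndig1l, a gene of a synaptic membrane protein first known from striatum, had 7.97, 7.89, 7.97 and 7.95 against 7.92, 7.89 and 7.68. Its difference of 0.11 (SE 0.063) was 0.041 without shock array 6. Kcnip2, a subunit of A-type potassium channels, had 9.22, 9.13, 9.18 and 9.19 against 9.19, 9.18 and 9.06, a difference of 0.036 that was -0.0058 without shock array 6. Actn2, an actin cross-linker of dendritic spines, had 7.15, 7.01, 7.18 and 7.21 against 7.23, 7.26 and 7.01, a difference of -0.030 that turned sign without cocaine array 5, shock array 4 or shock array 5 (to at most 0.017). Shock array 6 was the lowest array for Scn4b, Syndig1l and Kcnip2. Lrrc10b, a leucine-rich repeat gene outside these roles, had 7.14, 7.16, 7.18 and 7.14 against 7.002, 7.14 and 7.14, a difference of 0.063 (SE 0.044) that was 0.017 without shock array 4.

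Among the transcription factors, 7 of 11 were higher and 4 lower in the cocaine group, with a median of 0.032. Rarb, the retinoic acid receptor gene that specifies and maintains striatal neurons, had 7.83, 7.64, 7.90 and 7.77 on the cocaine arrays and 7.64, 7.57 and 7.46 on the shock arrays. The groups did not overlap, although cocaine array 5 and shock array 4 were nearly equal. The difference was 0.23 (SE 0.072, 1.17-fold, limma unadjusted p = 0.0166, adjusted p = 0.938), and it ran from 0.18 to 0.28 when each array in turn was left out. Rxrg, which encodes the partner receptor RXR gamma, had 7.63, 7.96, 7.77 and 7.85 against 7.69, 7.82 and 7.56, a difference of 0.11 (SE 0.093) that was 0.044 without shock array 6. Its arrays followed those of Rarb only in part. Shock array 6 was the lowest of all arrays for both, but cocaine array 5 was the lowest cocaine array for Rarb and the highest for Rxrg.

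Foxp1 and Meis2, which both striatal and cortical neurons use, differed in size. Foxp1 had 9.33, 9.25, 9.42 and 9.27 against 9.29, 9.12 and 9.21, a difference of 0.11 (SE 0.058) that was 0.071 without shock array 5. Meis2 had 10.19, 10.19, 10.23 and 10.25 against 10.19, 10.18 and 10.19, the smallest range of the module (0.067), and a difference of 0.027 that was 0.015 without cocaine array 7. Zfp503, also called Nolz1, a repressor of developing striatum, was at 6.74 on 4 arrays, with 6.86 on cocaine array 6 and 6.56 on shock array 4 at the ends, and its difference was 0.095 (0.034 without shock array 4).

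The other 5 factors with a subpallial role were lower in the cocaine group or nearly equal. Sp9, needed by indirect-pathway neurons and also found in interneurons, had 6.47, 6.36, 6.57 and 6.19 against 6.57, 6.47 and 6.69, and its difference of -0.17 (SE 0.098, limma unadjusted p = 0.12) was the lowest of the module. It ran from -0.23 without cocaine array 6 to -0.11 without cocaine array 7. Dlx5 and Dlx6, neighbouring homeobox genes of forebrain inhibitory neurons, had 8.23, 8.19, 8.22 and 8.11 against 8.19, 8.03 and 8.25, and 7.57, 7.55, 7.54 and 7.39 against 7.64, 7.26 and 7.54. Both differed by little (0.032 and 0.034), shared shock array 5 as the lowest array, and turned sign without it (to -0.030 and -0.075). Isl1, a determinant of direct-pathway and cholinergic neurons, had 6.29, 6.09, 6.09 and 5.71 against 6.09, 5.93 and 6.17, a difference of -0.021. Six3 averaged 6.12 ± 0.05 (SD, n = 4) against 6.16 ± 0.02 (SD, n = 3). The groups differed by -0.045, and by -0.022 without cocaine array 7. Cocaine array 7 was the lowest cocaine array for Sp9, Dlx5, Dlx6, Isl1 and Six3, a set named after the values were seen. The score of 9 cortical inhibitory markers, the mean over genes of each value minus the gene's own 7-array mean, was also lowest there (-0.091), with -0.081 on cocaine array 4 and 0.16 on shock array 6, and its part in these values was not tested.

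Ebf1, which marks direct-pathway neurons and also mural cells of vessels, had 7.77, 7.93, 7.93 and 7.87 against 8.02, 7.93 and 7.93, a difference of -0.085 (SE 0.052) that was -0.050 without cocaine array 4. Endothelial and mural markers were lower in the cocaine group in 8 of 8 measured genes, with a median of -0.28. Their mean level ran from 6.93 to 7.31 on the cocaine arrays and from 7.33 to 7.58 on the shock arrays, and none of the 8 was under the background stand-in. The part of vessel RNA in the Ebf1 value was not tested.

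**Figure D3:**
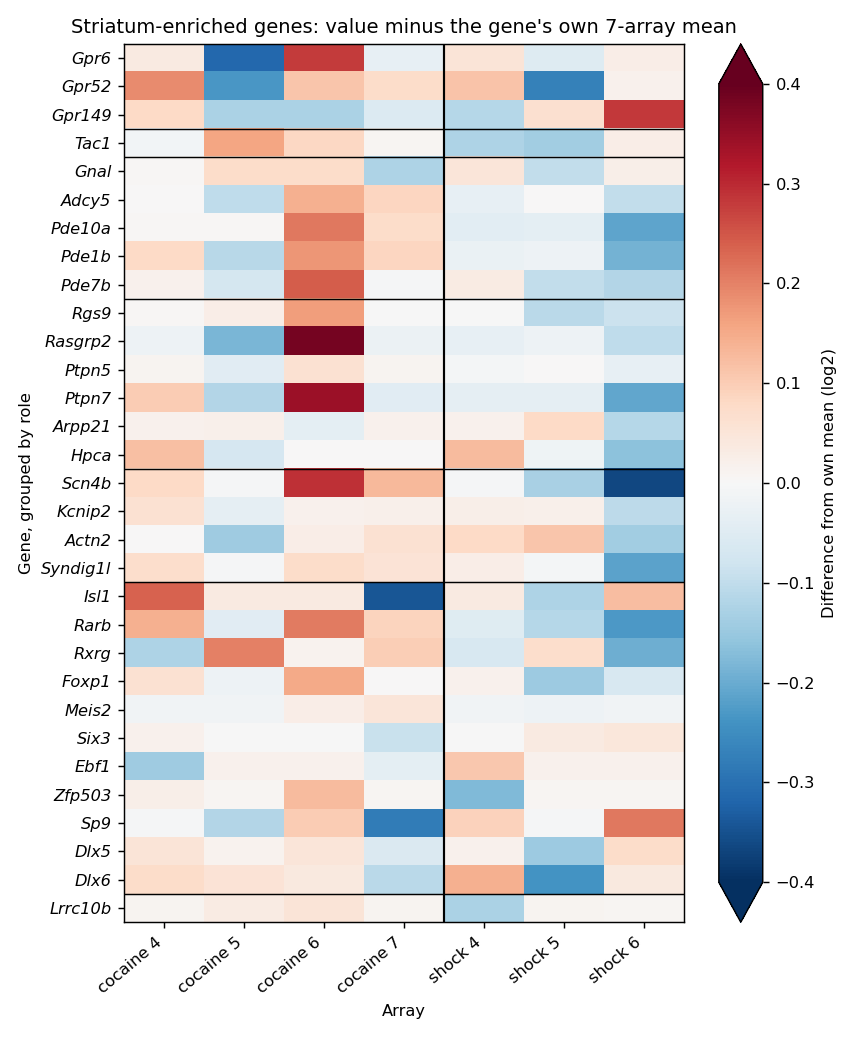
Each row is a member, each column an array, and the colour is the value minus the gene's own mean over the 7 arrays on the log2 scale (red above, blue below, cut at 0.4 either way), with horizontal lines between roles and a vertical line between the groups. The column of cocaine array 6 is mostly red and that of shock array 6 mostly blue among signalling, channel and phosphodiesterase genes. On shock array 6, 13 of the 31 members are above their own mean, most of all Gpr149, Sp9 and Isl1.

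Single arrays differed in the level of the module. Its score was 0.11 on cocaine array 6, or 1.08-fold, against 0.038, -0.036 and -0.011 on cocaine arrays 4, 5 and 7 and 0.0025, -0.045 and -0.057 on shock arrays 4, 5 and 6. Cocaine arrays 5 and 7 thus lay below shock array 4. On cocaine array 6, 28 of the 31 members were above their own 7-array mean, where 49.4% of all genes and 44.1% of genes above the background stand-in were. On cocaine array 4, 25 of the 31 members were above their own mean (49.5% of those genes), on cocaine array 5 it was 12 (57.3%) and on cocaine array 7 it was 18 (56.0%). On shock arrays 4, 5 and 6 it was 15 (52.7%), 11 (52.9%) and 13 (50.7%).

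Cocaine array 6 was the highest of the 7 arrays for 15 of the 31 members. It was the highest for 19.6% of all genes and 13.2% of genes above the background stand-in. It was the lowest for 1 member, for 20.8% of all genes and for 23.0% of genes above the stand-in. Shock array 6 was the lowest for 11 members (14.4% of all genes, 15.5% of those above the stand-in) and the highest for 4 (15.7% and 16.3%). Members above their own mean by over 0.1 numbered 14 on cocaine array 6 (18.8% of all genes, 9.60% of those above the stand-in). The brackets that follow give the share of genes above the stand-in. On cocaine arrays 4, 5 and 7 such members numbered 5 (9.35%), 2 (11.0%) and 1 (9.998%). On shock arrays 4, 5 and 6 they numbered 4 (11.4%), 1 (10.8%) and 3 (12.8%). Members below their own mean by over 0.1 numbered 13 on shock array 6 (12.7%) and 9 each on cocaine array 5 (6.47%) and shock array 5 (9.10%). There were 4 each on cocaine array 7 (9.67%) and shock array 4 (8.84%), and 2 on cocaine array 4 (11.0%). Cocaine array 6 had 1 (19.4%), which was Gpr149. The shift of the module on cocaine array 6 thus ran against that of other bright genes on the same array, whose score was -0.025. The score over all genes there was 0.0079.

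**Figure D4:**
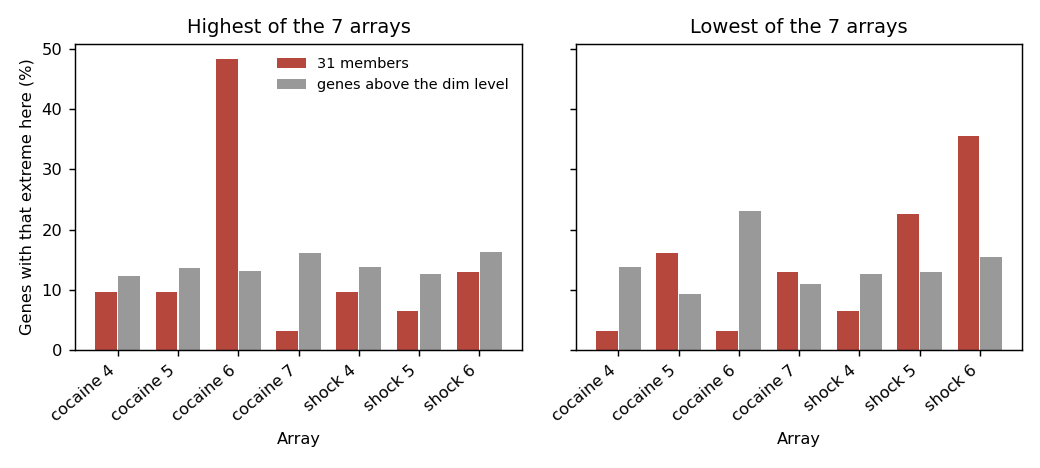
Percent of genes that have their single highest (left) or single lowest (right) value on each array, for the 31 members (red) and for the 13823 genes above the background stand-in (grey). Cocaine array 6 holds 48.4% of the members' highest values and shock array 6 holds 35.5% of their lowest, against 13.2% and 15.5% of the other set. Over all genes, not drawn, the shares are 19.6% and 14.4%.

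Members were also grouped by how widely cortex uses them, from general knowledge. The 12 measured members that few cortical cells express, such as Rgs9, Pde10a, Adcy5, Rarb, Gpr6 and Syndig1l, had a median difference of 0.085 with 7 higher and 5 lower. Their score was 0.12 on cocaine array 6 and between -0.052 and 0.048 on the other 6 arrays. The 19 that cortical neurons also express had a median of 0.036 with 17 higher and 2 lower, and their score was 0.098 on cocaine array 6 and from -0.064 to 0.032 on the others. Both subsets were therefore highest on the same array and neither separated the groups on every array.

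Striatal genes outside the module were also highest on cocaine array 6 and lowest on shock array 6, with another order of the arrays between. All 13 that were measured averaged higher with cocaine (50.9% of all genes did), and their median difference was 0.10. Their score was 0.11 on cocaine array 6, 0.010 to 0.035 on the other 3 cocaine arrays, and -0.052, -0.020 and -0.11 on shock arrays 4 to 6, so the groups did not overlap. Drd1, the D1 receptor gene, had 8.20, 8.21, 8.48 and 8.33 against 8.08, 8.07 and 7.77 (difference 0.33, SE 0.10, limma unadjusted p = 0.0151, adjusted p = 0.938). Drd2, the D2 receptor gene, had 10.05, 9.74, 9.98 and 9.90 against 9.86, 9.70 and 9.72 (difference 0.16). Penk and Pdyn, which encode enkephalin and dynorphin, differed by 0.037 and 0.058, and by 0.0057 and 0.0014 without cocaine array 6. The muscarinic receptor gene Chrm4 differed by 0.21 and Rasd2, a GTPase gene of striatum, by 0.11, and without shock array 6 these were 0.086 and 0.023. The others were Gng7, Strip2 (0.11, or 0.0095 without cocaine array 6), Dach1 (0.10, or 0.061 without shock array 6), Tmem158 (0.060), Gprin3 (0.026, or -0.0027 without cocaine array 6), Dclk3 (0.024, or -0.0052 without cocaine array 6) and Bcl11b (0.020). This list was drawn up with the higher striatal values of these arrays already known, so its direction is not independent evidence. Unlike the members, its genes were not divided by how widely cortex uses them, and their source was not tested.

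Both output pathways were represented. Direct-pathway genes differed by 0.14 (Tac1), 0.33 (Drd1), 0.058 (Pdyn), -0.021 (Isl1) and -0.085 (Ebf1), and indirect-pathway genes by 0.16 (Drd2), 0.037 (Penk), 0.081 (Gpr52), -0.017 (Gpr6) and -0.17 (Sp9). Both sets held values on either side of 0, and the difference between the sets was not tested. The sets are incomplete: Chrm4 (0.21) was placed in neither. Several of these genes, such as Tac1, Ebf1 and Sp9, also occur in other cells.

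**Figure D5:**
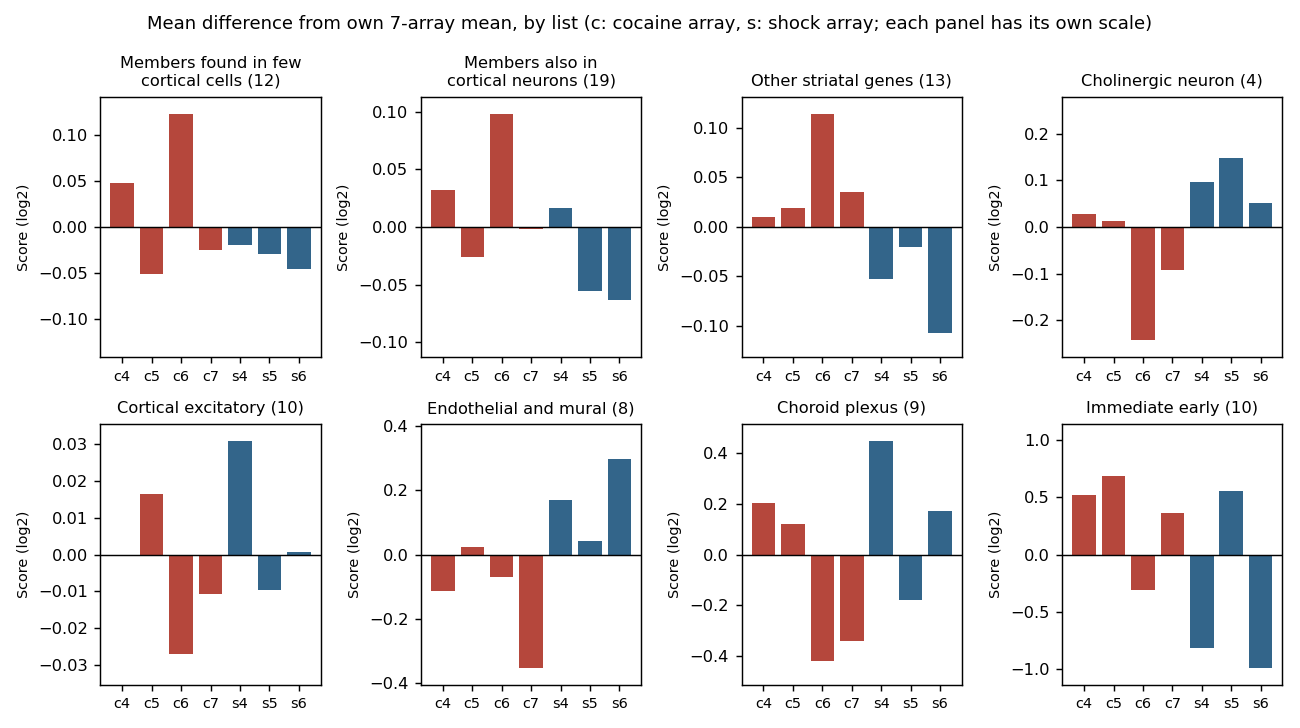
Score of 8 gene lists on each array (mean over genes of the value minus the gene's own 7-array mean, log2; red bars cocaine arrays, blue bars shock arrays; the number of genes is in each title, and the scales differ between panels). Both member subsets and the other striatal genes peak on cocaine array 6, on which the cholinergic, choroid plexus and immediate early lists are below 0.

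Other cell types moved between arrays too, and their part in the striatal values was not tested. Choroid plexus markers scored -0.42 on cocaine array 6 and -0.34 on cocaine array 7, and 0.45 on shock array 4, with mean levels of 5.65 to 6.27 in the cocaine and 5.89 to 6.52 in the shock group, and 5 of the 9 lay under the background stand-in. Of these 9, 8 were lower in the cocaine group (median -0.17). Astrocyte markers were lower in the cocaine group in 9 of 9 genes (median -0.16, mean levels of 8.99 to 9.26 against 9.15 to 9.31). Immediate early genes, which neurons switch on within minutes of activity, were higher in 10 of 10, with scores of 0.52, 0.69, -0.31 and 0.36 on the cocaine arrays and -0.82, 0.55 and -0.99 on the shock arrays. Cocaine array 6, the highest for the striatal module, was thus the lowest cocaine array for these genes. Cortical excitatory markers scored between -0.027 and 0.031 on all 7 arrays, and 7 of 10 were lower in the cocaine group (median -0.043). Markers of oligodendrocytes were higher in 5 of 7 genes (median 0.057), and lower were 4 of 7 of microglia (-0.095), 5 of 6 of migrating neuroblasts (-0.040), 3 of 4 of thalamus (-0.053) and 7 of 9 of cortical inhibitory neurons (-0.093). The cholinergic markers, all under the background stand-in, scored -0.24 on cocaine array 6 and were lower in the cocaine group in 4 of 4 genes (median -0.19). As RNA from many cells was measured, more cells of a type and more RNA per cell cannot be told apart.

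Leaving out arrays changed the smaller values. With cocaine array 6 left out, 22 of 31 members were higher (51.9% of all genes) and the median was 0.036. Rarb (higher) and Sp9 (lower, -0.23) were at an unadjusted p under 0.05 (limma), where 585 of all 22180 genes were. With shock array 6 left out, 22 were higher (51.2% of all genes) with a median of 0.047, and Tac1 was the 1 member at that level (606 of all genes). Rarb was at that level in the other 6 of these fits, Scn4b in 3 and Pde10a in 2. Over all genes, from 531 (without cocaine array 7) to 788 (without shock array 5) were at that level. The median was lowest without cocaine array 4 (0.035) and highest without shock array 4 (0.080). The sign of 20 members, 16 higher and 4 lower in the cocaine group, was the same in all 7 of these fits.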

How the data were processed

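Values deposited by the authors for 41345 probe sets ran from 1.12 to 13.44 and were taken as log2, a scale read from that range. Per the submitters' processing notes the authors used Transcriptome Analysis Console, and how probes were summarized and normalized was not stated there. Array quartiles were nearly equal (medians 5.44 to 5.47), so differences are relative to other genes. Deposited values were often identical on 2 or more arrays (55.9% of probe sets), which affects counts of overlap. Arrays have no read depth, and their number limits the precision.

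Probe sets with 1 symbol in the platform annotation (23521) were kept, with the highest mean over the 7 arrays per gene, which left 22180 genes; 1814 named several genes and 16010 were unnamed here. Groups came from the labels. limma 3.58.1 in R 4.3.3 (lmFit, eBayes, two-sided, no covariate, all 7 arrays) was fitted across all genes, with Benjamini-Hochberg adjustment at 0.05, and was tested on simulated data. The p-values measure the spread between arrays, which may be technical, since nothing states that they came from separate animals.

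Members, lists and tests were chosen with earlier results of these data known. All members and other striatal genes are named, pathway genes at an unadjusted p under 0.05, and elsewhere at most the 3 of highest level. Alternatives were each array left out, quantile normalization, median centring, dim genes left out, the mean of probe sets, trend and robust moderation, array weights and the title number as a replicate block. Promoters came from RefSeq (GRCm38.p6), matched by symbol for 25 of the 31 measured members. Figures and tables were made in Python 3.11.15.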

Additional observations from a re-analysis of the deposited data

Results flagged for a closer look

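Among 35 measures of the 4 cocaine arrays (31 members and 4 list scores), 2 had an array whose gap to the nearest other array, as a share of the group's range, passed Dixon's 95% limit. Chance flags about 5% of such groups, here 1.75. Arpp21 was lowest on cocaine array 6 (gap 0.9367) and Zfp503 highest on it (gap 0.8635). Both had the same value on 2 of the other cocaine arrays.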

How the results depend on the processing

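No member was called under any of the 14 alternatives, and no other gene was. The median of the members stayed above 0 in all of them, from 0.032 with array weights to 0.083 after median centring, and 21 (without shock array 5) to 26 (without shock array 4) members were higher. Leaving out dim genes, averaging probe sets, and trend and robust moderation could not change the members' differences. No member was dim or had a further probe set, and that moderation alters only the standard errors. Median centring raised the share of all genes that were higher from 50.9% to 62.0%. Signs turned for Isl1 (0.0010 after quantile normalization) and Gpr6 (0.0027 after median centring). With 1 array left out in turn, 11 members turned sign, over these ranges: Gpr6 -0.11 to 0.085, Gpr52 -0.030 to 0.17, Gnal -0.028 to 0.061, Rasgrp2 -0.025 to 0.16, Arpp21 -0.044 to 0.052, Hpca -0.041 to 0.10, Kcnip2 -0.0058 to 0.059, Actn2 -0.11 to 0.017, Isl1 -0.10 to 0.090, Dlx5 -0.030 to 0.078 and Dlx6 -0.075 to 0.11. The cause was not tested.

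The title numbers were also used as a replicate block. Deviations of same-numbered arrays from their group means correlated at 0.13, 0.064 and 0.16 for numbers 4, 5 and 6. Arrays with different numbers were not compared, so whether the numbers pair the arrays was not tested. The main fit leaves the numbers out. Number 7 occurs only in the cocaine group, so the block takes up that array. The differences with the block therefore equal those without cocaine array 7 and are not a separate check. In both fits 25 members were higher, the median was 0.068 and Isl1 turned to 0.090. With the replicate block, Sp9 was the 1 member at an unadjusted p under 0.05 (limma), and without cocaine array 7 it was Rarb. Over all genes, 915 were at that level with the block, against 688 in the main fit and 531 without cocaine array 7.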
